A study of Homo sapiens with 12 samples.

Results

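The demethylase-treated m1A immunoprecipitate (dma.IP) was set against the untreated immunoprecipitate (IP) of the same culture in DLD1, a human colorectal cancer line. OE-WT cells overexpressed TRMT6 and TRMT61A from lentiviral vectors, and CTRL cells carried the empty vector. Each condition was cultured in duplicate, which gave 4 cultures, 8 libraries for this comparison of 12 in the series, and 4 Input libraries taken before the antibody. All 44 adenosines listed by the study were kept, and reads and mismatches were recomputed per library from the deposited counts. The sites lay in 29 tRNAs of 12 isotypes (tRNA-iMet counted apart), and 8 of them were at A58. The treated libraries are marked as demethylase(+) and follow the antibody step in the study's workflow. Which enzyme was used is not given in the sources used here.

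N1-methyladenosine (m1A) carries a methyl group on the Watson-Crick face of adenine, so that reverse transcriptase either stops there or inserts a wrong base. In cytosolic tRNAs the TRMT6/TRMT61A complex places it on A58 in the T loop, where it helps to hold the folded tRNA together. An antibody against m1A enriches fragments that carry the mark, and a demethylase control removes the methyl group from such fragments before they are copied, so that a read through the site is expected to carry the genomic base.

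The tRNAs below are among those described most closely in what follows. They were chosen after the values were seen, and not all of them passed a threshold. They are given as read from hg38, where RefSeq places a tRNA gene at each, with the listed adenosines in capitals.
tRNA-Asp-GTC-2-5: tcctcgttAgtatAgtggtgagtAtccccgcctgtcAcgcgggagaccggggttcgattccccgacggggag
tRNA-Asp-GTC-3-1: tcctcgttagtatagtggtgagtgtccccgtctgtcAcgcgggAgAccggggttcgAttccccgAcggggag
tRNA-Glu-TTC-4-1: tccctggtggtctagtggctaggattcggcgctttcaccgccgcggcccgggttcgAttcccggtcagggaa
tRNA-Glu-TTC-2-1: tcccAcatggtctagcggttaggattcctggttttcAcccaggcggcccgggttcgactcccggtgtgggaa
tRNA-Gln-CTG-5-1: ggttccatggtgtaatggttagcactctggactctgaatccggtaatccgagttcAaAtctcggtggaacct
tRNA-Val-CAC-3-1: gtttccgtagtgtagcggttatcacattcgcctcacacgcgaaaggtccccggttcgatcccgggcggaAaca
tRNA-Arg-ACG-1-3: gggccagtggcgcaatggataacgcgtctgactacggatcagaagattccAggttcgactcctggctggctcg
The 2 tRNA-Asp-GTC entries differ at A24G and C31T, counted from the 5′ end with tRNA-Asp-GTC-2-5 first, so their reads are close to interchangeable away from these bases. tRNA-Asp-GTC-2-5 (TRD-GTC2-5) is at chr1:161470415-161470486, minus strand, inside an exon of the lncRNA gene ENSG00000283360, and the entry stands for 11 listed genes. tRNA-Asp-GTC-3-1 (TRD-GTC3-1) is at chr6:27583457-27583528, minus strand, with no GENCODE gene over it. tRNA-Glu-TTC-4-1 (TRE-TTC4-1) is at chr1:16535279-16535350, minus strand, in an exon of LINC01783, and tRNA-Glu-TTC-2-1 (TRE-TTC2-1) is at chr13:44917927-44917998, minus strand. tRNA-Gln-CTG-5-1 (TRQ-CTG5-1) is at chr6:27295433-27295504, plus strand. tRNA-Val-CAC-3-1 (TRV-CAC3-1) is at chr19:4724635-4724707, minus strand, in an exon of DPP9. tRNA-Arg-ACG-1-3 (TRR-ACG1-3) is at chr14:22929701-22929773, plus strand, in an exon of PRMT5-DT. It differs from tRNA-Arg-ACG-2-1, which also carries a listed A51, at C50T only, the base beside the site. Each position is the place of the base in the listed tRNA, from its 5′ end, so that A58 is A57 in tRNA-Asp and tRNA-Glu and A56 in tRNA-Gly.

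The dma.IP libraries had fewer reads over the sites than the IP libraries in 3 cultures and more in OE-WT 1. The dma.IP libraries held 203 reads in OE-WT 1, 123 in OE-WT 2, 62 in CTRL 1 and 136 in CTRL 2. The IP libraries held 59 in OE-WT 1, 150 in OE-WT 2, 119 in CTRL 1 and 220 in CTRL 2. OE-WT 1 thus stood apart, with 3.44 times as many dma.IP as IP reads, where the other cultures had 0.521 to 0.82 times as many. The mean log2 ratio of dma.IP over IP was -0.03 ± 1.24 (SD, n = 4 cultures; exact two-sided sign-flip p = 1), and -0.64 without OE-WT 1. The depth of the libraries is not in the table, so these totals also move with how deeply each was sequenced. The lowest p that 4 paired cultures allow in the sign-flip test is 0.125. Since nothing says how the duplicates were separated, p-values here measure the spread between these libraries, except those of the exact conditional tests. The exact conditional tests of mismatches, given further below, treat each read as independent and measure only the error of counting. A read that spans several sites of a tRNA was counted at each, so counts at neighbouring sites are not independent.

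Fewer sites were seen in dma.IP than in IP in 3 of 4 cultures. Reads were present at 24 sites in OE-WT 1, 24 in OE-WT 2, 21 in CTRL 1 and 22 in CTRL 2 in dma.IP, and at 22, 29, 32 and 35 sites of the same cultures in IP. The mean difference was -6.75 ± 6.75 sites (SD, n = 4; exact sign-flip p = 0.25), and -3.5 ± 11.9 with at least 3 reads at a site. Over the pairs of a site and a culture, 68 had reads in both fractions, 23 in dma.IP only, 50 in IP only and 35 in neither. Summed over cultures, 12 sites had more dma.IP than IP reads, 30 had fewer and 2 had as many. No dma.IP read was present at 10 sites. They had 62 IP reads, of which 47 lay at A5 of tRNA-Glu-TTC-2-1, while the other 9 sites had at most 3 IP reads each. The sites of tRNA-Ile, tRNA-Leu and tRNA-Lys were all among the 10, with 1, 2 and 5 IP reads.

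The clearest difference between the fractions was in which tRNAs the reads came from. tRNA-Asp took 55.7% of the dma.IP reads (95% Clopper-Pearson interval 51.4 to 60.03%) and 21.2% of the IP reads (17.8 to 24.8%), and it made up 94.5% of the Input reads at these sites. tRNA-Gln took 11.3% of the dma.IP reads (8.68 to 14.3%) and 31.9% of the IP reads (28.0 to 36.0%). tRNA-Gln, tRNA-Val and tRNA-iMet together held 21.8% of the dma.IP reads and 57.1% of the IP reads, and this share was lower in dma.IP in 4 of 4 cultures. These are shares of the same total, so a larger share of one isotype lowers the others. All intervals treat each read as independent and cover only the error of counting. Whether PCR copies were collapsed is not given in the sources used here. Over the 44 sites, Spearman's rho of a library's reads with the Input reads of its culture was 0.323 to 0.559 in dma.IP and -0.13 to 0.386 in IP, as a description of sites that share tRNAs and reads.

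**Figure D1:**
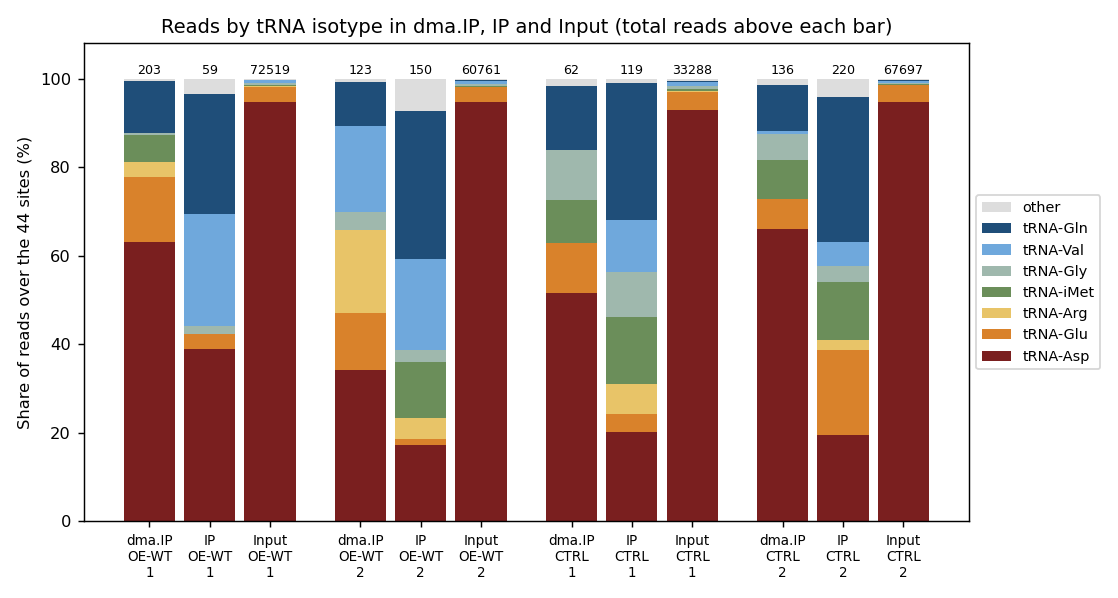
Share of the reads over the 44 sites (vertical axis, percent) that fell on each tRNA isotype, in dma.IP, IP and Input of each culture, with the total reads above each bar. The tRNA-Asp share is higher in dma.IP than in IP in all 4 cultures, the tRNA-Gln share is lower in all 4, and Input is nearly all tRNA-Asp.

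tRNA-Asp, which decodes aspartate codons, had more reads in dma.IP in every culture. It had 128 dma.IP reads in OE-WT 1, 42 in OE-WT 2, 32 in CTRL 1 and 90 in CTRL 2, against 23, 26, 24 and 43 IP reads in the same cultures. Its share of a library was 34.1 to 66.2% in dma.IP and 17.3 to 39.0% in IP, ranges that overlap through the IP library of OE-WT 1, the highest of its fraction. By edgeR's quasi-likelihood test with the culture as a block, log2 of dma.IP over IP was 1.19 ± 0.21 (SE; Benjamini-Hochberg adjusted p = 0.00598). tRNA-Asp was 1 of 2 isotypes past the adjusted threshold of 0.05 among 9 tested (22.2%), with 11.1% of the isotypes called higher and 11.1% called lower. With TMM scaling, which rests on the bulk of the isotypes, its log2 ratio was 0.97 (edgeR adjusted p = 0.261). With the replicate numbers crossed between the cultures of a condition, tried after the data were seen, it was 1.22 (edgeR adjusted p = 0.162). The call was lost in both of these settings. It was kept without the culture block, with DESeq2 and with each culture left out in turn.

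The other called isotype was tRNA-Gln, the glutamine tRNA, which fell in dma.IP. It had 24 dma.IP reads in OE-WT 1, 12 in OE-WT 2, 9 in CTRL 1 and 14 in CTRL 2, against 16, 50, 37 and 72 IP reads. Its share was 9.76 to 14.5% in the 4 dma.IP libraries and 27.1 to 33.3% in the 4 IP libraries, with no overlap. The log2 ratio was -1.43 ± 0.32 (SE; edgeR adjusted p = 0.0131). This call was lost with TMM scaling (adjusted p = 0.158), with DESeq2 (0.823), without CTRL 1 (0.132) and without CTRL 2 (0.0784).

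None of the other 7 isotypes tested passed the threshold. tRNA-Val had 25 dma.IP and 72 IP reads, a log2 ratio of -3.42 ± 1.59 (SE; edgeR adjusted p = 0.203), and 24 of its dma.IP reads were in OE-WT 2. The initiator tRNA-iMet, which starts translation, had 30 dma.IP and 66 IP reads (-0.71 ± 1.64; adjusted p = 0.87). It was at 0 in dma.IP of OE-WT 2 and at 0 in IP of OE-WT 1. tRNA-Glu had 62 and 51 reads, tRNA-Arg 30 and 20, tRNA-Gly 21 and 25, tRNA-Ala 4 and 6 and tRNA-Tyr 1 and 9 in dma.IP and IP. Their standard errors of 1.12 to 2.12 log2 units leave these ratios undetermined at this depth.

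Site by site, 3 of the 29 sites with 10 or more reads passed the adjusted threshold (10.3%), 1 of them higher (3.45%) and 2 lower (6.9%) in dma.IP. An unadjusted p under 0.05 was reached by 10. With TMM scaling the split was 1 higher and 1 lower. The median log2 ratio over the 29 sites was -0.63, and -0.75 with TMM scaling, so the ratios below are best read against that value.

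A57 of tRNA-Glu-TTC-4-1, its A58, was the site that rose. It had 29 dma.IP reads in OE-WT 1, 15 in OE-WT 2, 7 in CTRL 1 and 9 in CTRL 2. The same cultures had 0, 1, 0 and 1 IP reads. Every dma.IP library was above every IP library, with 60 reads against 2, and Input held 1879 reads at this site. The log2 ratio was 4.53 ± 0.64 (SE; edgeR adjusted p = 1.58e-05). It was also called in 8 of 9 other settings, and not without OE-WT 1 (log2 ratio 4.26; adjusted p = 0.0582).

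A5 of tRNA-Glu-TTC-2-1, in the acceptor stem of another glutamate tRNA, went the other way. It had 0 reads in all 4 dma.IP libraries and 1, 1, 4 and 41 IP reads in OE-WT 1, OE-WT 2, CTRL 1 and CTRL 2. The reads of dma.IP summed over libraries were at least 14.98-fold lower as a share than those of IP, with 3 counts over the 4 dma.IP libraries as the floor (edgeR adjusted p = 0.00814). CTRL 2 alone held 41 of its 47 IP reads, and without that library the site had too few reads to be tested. Without OE-WT 1 the adjusted p was 0.13.

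A70 of tRNA-Val-CAC-3-1 lies in the 3′ strand of the acceptor stem, 12 nt past A58. It had 11 dma.IP reads, all in OE-WT 2, and 2, 29, 4 and 6 IP reads in OE-WT 1, OE-WT 2, CTRL 1 and CTRL 2. The log2 ratio was -2.39 ± 0.76 (SE; edgeR adjusted p = 0.0440). This was the least stable of the 3 calls. It was lost without the culture block (adjusted p = 0.23), with TMM scaling (0.0557), and without CTRL 2 (0.166), OE-WT 1 (0.161) or OE-WT 2 (0.363).

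The tRNA-Asp and tRNA-Gln totals did not rest on 1 site. Sites of a tRNA share reads, so agreement in sign between them is partly built in. With reads counted once per tRNA and summed by isotype, both isotypes were still called. All 8 tested tRNA-Asp sites, which lie in tRNA-Asp-GTC-2-5 and tRNA-Asp-GTC-3-1, had a positive log2 ratio, as did 12 of all 29 tested sites. The tRNA-Asp median was 1.16 and the range 0.91 to 1.59, and none passed on its own. With 1 count per tRNA, tRNA-Asp-GTC-2-5 had a log2 ratio of 1.49 (edgeR adjusted p = 0.162) and tRNA-Asp-GTC-3-1 of 1.47 (adjusted p = 0.132). A37 of tRNA-Asp-GTC-2-5, the base after the anticodon, had the most reads of any site. It had 19, 8, 10 and 20 dma.IP reads in OE-WT 1, OE-WT 2, CTRL 1 and CTRL 2, against 8, 7, 5 and 4 IP reads (log2 ratio 1.16 ± 0.46, SE; edgeR adjusted p = 0.0970). The 4 sites from A44 to A65 of tRNA-Asp-GTC-3-1 had 40 to 42 dma.IP and 15 to 16 IP reads each, which are largely the same reads. They include A57, the A58 of that tRNA, with 22, 7, 2 and 10 dma.IP reads against 2, 4, 3 and 6 IP reads in the same order of cultures. Only A9 of tRNA-Asp-GTC-2-5 (5 dma.IP reads and 1 IP read) and A24 of tRNA-Asp-GTC-1-1 (0 and 2) had too few reads to test.

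All 8 tested tRNA-Gln sites had a negative log2 ratio, as did 17 of all 29 tested sites. The tRNA-Gln median was -1.20 and the range -2.57 to -0.72, against a median of -0.63 over the 29 sites. Again none passed on its own in the main setting. No tRNA-Gln passed with 1 count per tRNA, where the lowest edgeR adjusted p was 0.152 (tRNA-Gln-CTG-5-1). A58 of tRNA-Gln-CTG-5-1, 1 nt past the methylated position, had 3, 3, 2 and 3 dma.IP reads in OE-WT 1, OE-WT 2, CTRL 1 and CTRL 2, against 3, 7, 12 and 15 IP reads (log2 ratio -1.45 ± 0.57, SE; edgeR adjusted p = 0.0970). A69 of tRNA-Gln-CTG-4-1 had 1, 2, 1 and 2 dma.IP reads against 9, 8, 7 and 4 IP reads, with no overlap between the fractions (-2.15 ± 0.79; adjusted p = 0.0956). The 4 tested tRNA-Val sites were also all below 0, with a median of -2.22. A59 and A60 of tRNA-Val-AAC-1-1 had 3 and 7 dma.IP reads, all from OE-WT 2, against 11 and 14 IP reads. At A58 of tRNA-Gln-TTG-2-1, 1 nt past the methylated position, the 3 dma.IP reads all came from OE-WT 1, against 17 IP reads in the other cultures.

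**Figure D2:**
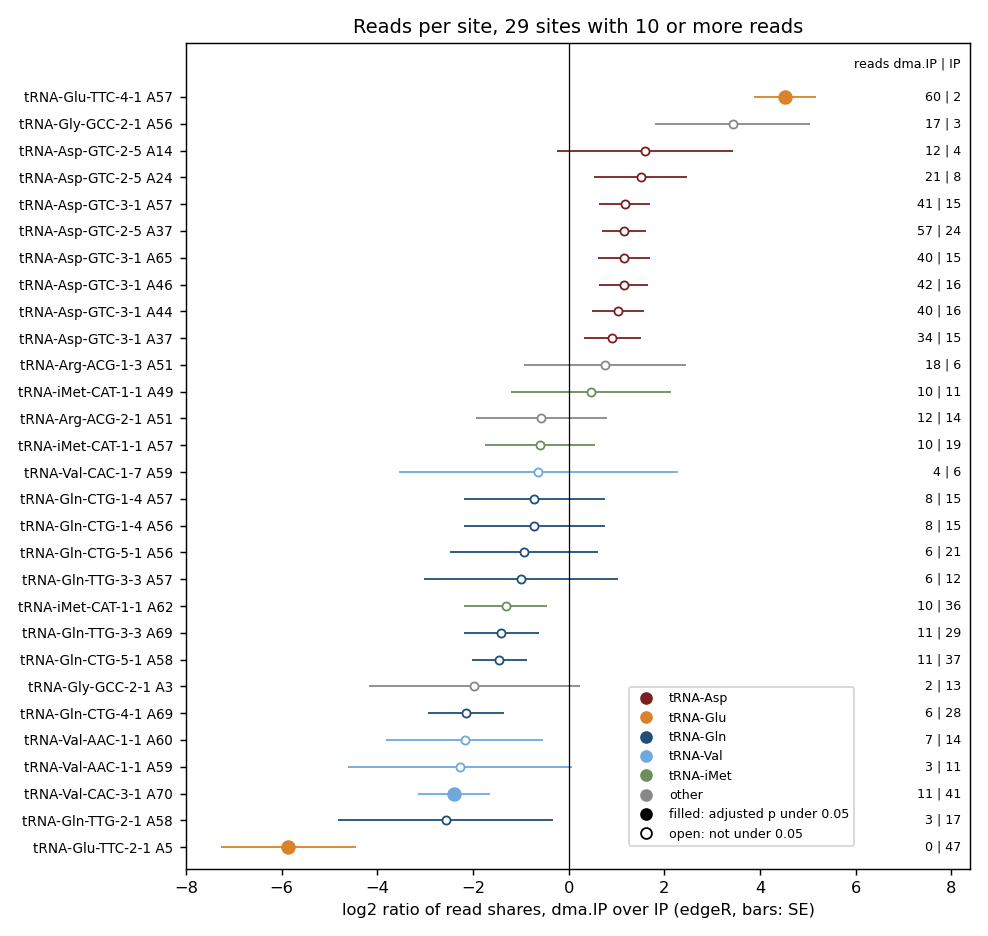
log2 ratio of dma.IP over IP read shares (horizontal axis, edgeR estimate with its SE) for the 29 sites with 10 or more reads, coloured by isotype, with the summed reads of both fractions at the right. A57 of tRNA-Glu-TTC-4-1 is farthest right and A5 of tRNA-Glu-TTC-2-1 farthest left, the estimate of the site at 0 reads depends on the prior count, and the tRNA-Asp and tRNA-Gln sites lie on opposite sides of 0.

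Where along the tRNA the reads lay also differed. The middle part, past position 25 and before the T arm, held 33.4% of the dma.IP reads and 13.7% of the IP reads. Its share was higher in dma.IP in 4 of 4 cultures. Within it, the 3 A37 sites beside the anticodon held 17.7% of the dma.IP reads and 7.48% of the IP reads. The T arm and 3′ side held 58.6% and 70.1%, lower in 4 of 4 cultures. The 5′ part held 8.02% and 16.2%, lower in 3 of 4 cultures, and without A5 of tRNA-Glu-TTC-2-1 it held 8.02% and 7.66%. All 4 tested sites of the middle part were in tRNA-Asp, so position and isotype cannot be told apart there.

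Within the T arm, the sites at A58 and those beside it went opposite ways when summed over tRNAs. The 8 sites at A58 took 27.7% of the dma.IP reads and 13.7% of the IP reads, with shares of 24.3 to 32.3% in the dma.IP libraries and 8.47 to 15.3% in the IP libraries. Without tRNA-Glu-TTC-4-1 the shares were 16.2% and 13.3%. The 9 sites 1 nt before or after A58 took 7.06% of the dma.IP reads and 20.8% of the IP reads, at 3.68 to 9.76% and 18.6 to 23.6% by library. The 3 sites 12 nt past A58, in tRNA-Gln and tRNA-Val, took 5.34% and 17.9%. Most of these neighbouring sites were in tRNA-Gln and tRNA-Val, and most dma.IP reads at A58 were in tRNA-Asp and tRNA-Glu. Position and isotype thus cannot be told apart here either. In tRNA-Gln-CTG-1-4, which has both kinds of site listed, A56 and A57 (its A58) each had 8 dma.IP and 15 IP reads. The A58 sites that passed the read minimum were split, 3 higher and 3 lower, with a median log2 ratio of 0.29.

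The remaining A58 sites had few reads. A56 of tRNA-Gly-GCC-2-1 had 0, 5, 6 and 6 dma.IP reads in OE-WT 1, OE-WT 2, CTRL 1 and CTRL 2, against 3 IP reads, all in CTRL 2 (log2 ratio 3.43 ± 1.62, SE; edgeR adjusted p = 0.133). A57 of tRNA-iMet-CAT-1-1 had 10 dma.IP and 19 IP reads, A57 of tRNA-Gln-CTG-1-4 had 8 and 15, and A57 of tRNA-Gln-TTG-3-3 had 6 and 12. A57 of tRNA-Ala-AGC-2-2 had 2 reads in each fraction, and A74 of tRNA-Tyr-GTA-2-1 had 1 dma.IP and 7 IP reads.

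**Figure D3:**
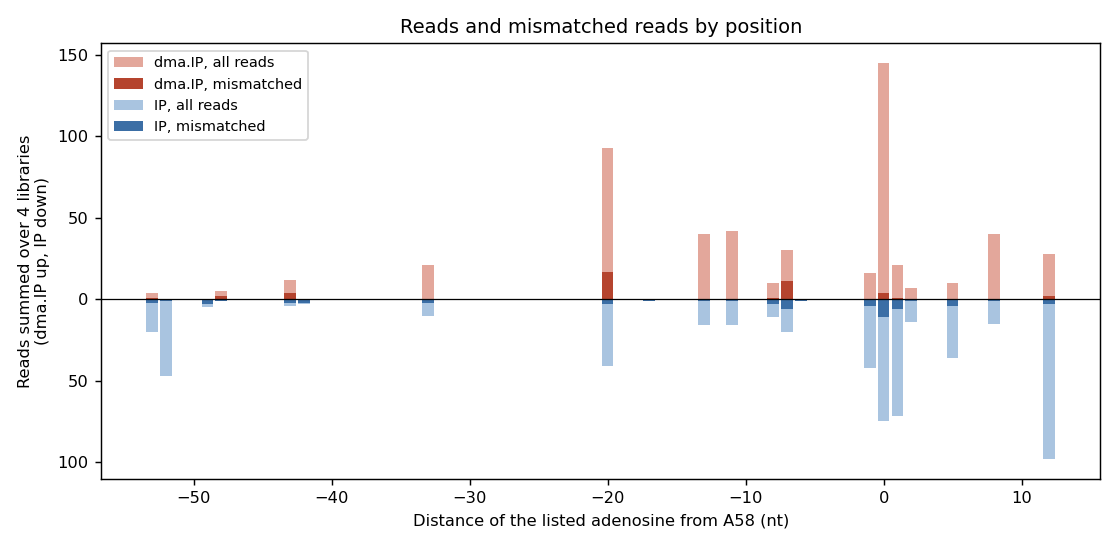
Reads (pale) and mismatched reads (dark) summed over the 4 libraries of dma.IP (upwards) and IP (downwards) by the distance of the listed adenosine from A58 in nt (horizontal axis). dma.IP reads stand out at A58 (145 against 75) and 20 nt before it (93 against 41), and IP reads 12 nt past it (28 against 98).

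Over all sites the mismatch share was lower in dma.IP than in IP in 2 cultures and higher in 2. Of the dma.IP reads 43 of 524 were mismatched (8.21%, 95% interval 6.00 to 10.9%), against 59 of 548 IP reads (10.8%, 8.30 to 13.7%), and 7.72% of the Input reads. In dma.IP the share was 3.94% in OE-WT 1, 13.8% in OE-WT 2, 3.23% in CTRL 1 and 11.8% in CTRL 2. In IP it was 3.39%, 10%, 11.8% and 12.7% in the same cultures. The mean difference of dma.IP minus IP was -1.28 ± 5.23 percentage points (SD, n = 4 cultures; 2 higher and 2 lower; exact sign-flip p = 0.75). With reads pooled and culture as a stratum the exact conditional p was 0.828, and a quasi-binomial model with the culture block gave an odds ratio of 0.933. As an unweighted mean of the site rates, in which every site with reads counts alike, the difference was -9.89 ± 7.57 points (SD, n = 4; 1 higher and 3 lower; exact sign-flip p = 0.25).

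The listing of the sites favours IP. None of the 44 sites was without a mismatched IP read, and at 35 sites there was exactly 1 such read over the 4 libraries. The rule by which the sites were chosen is not given in the sources used here. Taking 1 mismatched IP read away from each site, an adjustment added after the data were seen, left 15 of 504 IP reads mismatched (2.98%, 1.68 to 4.86%), 5.23 points below dma.IP. The direction of the summed difference thus turned with 1 read per site, and every lower share in dma.IP given below includes the read by which its site is present.

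The 2 conditions differed in direction. The difference of dma.IP minus IP was 0.551 and 3.82 points in OE-WT 1 and OE-WT 2, and -8.54 and -0.963 points in CTRL 1 and CTRL 2. The mean differed by 6.94 points between OE-WT and CTRL, and an exact permutation of the 4 cultures gave p = 0.333, the lowest it can give. The split of directions was lost under 2 other measures. By the unweighted mean of site rates the differences were 0.202 and -8.71 points in OE-WT 1 and OE-WT 2, and -17.1 and -14.0 points in CTRL 1 and CTRL 2. Without A51 of tRNA-Arg-ACG, left out after the data were seen, they were 0.692 and -3.79 points in OE-WT, and -8.49 and 0.602 points in CTRL (exact permutation p = 0.667). For reads, the edgeR interaction of fraction with condition called 0 of 29 sites (0%). A37 of tRNA-Asp-GTC-2-5, with a log2 interaction of -2.54 (adjusted p = 0.389), was the single site with an unadjusted p under 0.05.

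**Figure D4:**
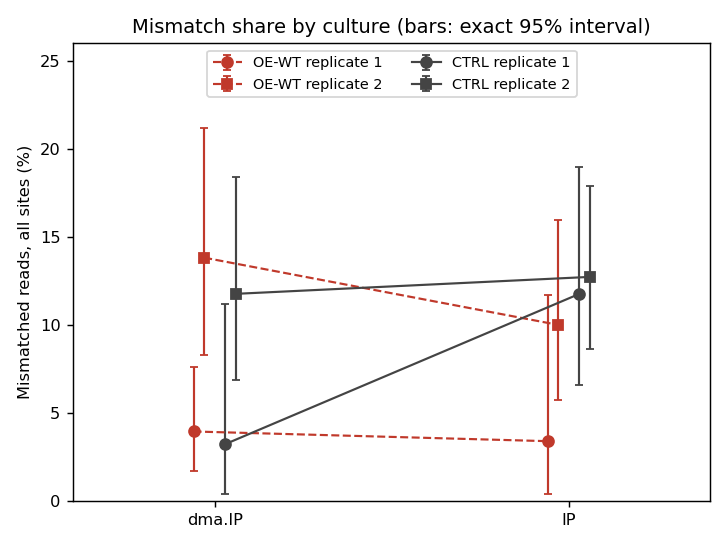
Share of mismatched reads over all sites (vertical axis, percent, with exact 95% intervals that take each count as independent) in dma.IP and IP, with a line per culture. The CTRL lines lie lower in dma.IP and the OE-WT lines higher, and each point lies inside the interval of its partner except in CTRL 1.

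Few mismatches seen in IP were seen again in dma.IP of the same culture. Of 51 pairs of a site and a culture with a mismatched IP read, 25 had no dma.IP read, 20 had dma.IP reads but no mismatch, and 6 had a mismatch in both. In the other direction, 18 pairs had a mismatched dma.IP read, of which 4 had no IP read and 8 had IP reads without a mismatch. Among the 68 pairs with reads in both fractions the rate was higher in dma.IP in 10, lower in 23 and equal in 35, of which 34 were equal at 0. Over sites, 11 of 44 had a mismatched dma.IP read and 23 had dma.IP reads without one. Every listed site has a mismatched IP read, so the listing favours IP in these counts too, and they were not adjusted for it.

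No single site passed the threshold for its mismatch rate (exact conditional test stratified by culture, 0 of 25, 0%), and 1 had an unadjusted p under 0.05. The counts of only 7 of the 25 sites could have given an unadjusted p under 0.05, so the test could not decide at the others. Summed by isotype, 0 of 7 passed (0%), with 0 at an unadjusted p under 0.05. The counts of each of these isotypes could have given such a p, and the lowest exact conditional p was 0.193 (tRNA-Arg).

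At A58, the position of the enzyme that OE-WT cells overexpress, the mismatch share was lower in dma.IP. It was 4 of 145 reads (2.76%, 0.757 to 6.91%) in dma.IP, 11 of 75 (14.7%, 7.56 to 24.7%) in IP, and 972 of 28341 (3.43%) in Input. By culture the dma.IP counts were 3 of 62, 0 of 30, 1 of 20 and 0 of 33 in OE-WT 1, OE-WT 2, CTRL 1 and CTRL 2. The IP counts were 0 of 5, 4 of 23, 1 of 15 and 6 of 32. The share was thus lower in dma.IP in 3 cultures and higher in OE-WT 1, which had 5 IP reads to judge by. With 1 mismatched IP read less per site, IP stood at 3 of 67 (4.48%, 0.933 to 12.5%), inside whose interval the dma.IP share lies.

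All 4 mismatched dma.IP reads at A58 were in tRNA-Glu-TTC-4-1. That site had 3 mismatches of 29 reads in OE-WT 1 and 1 of 7 in CTRL 1, where IP had no reads, and 0 of 15 in OE-WT 2 and 0 of 9 in CTRL 2, where the single IP read was mismatched in each. It gave the lowest p of all sites (exact conditional p = 0.00625, adjusted p = 0.156; limma on logit rates, adjusted p = 0.0465), resting on 2 IP reads. The other 7 A58 sites had 0 of 85 dma.IP reads mismatched, which allows a share of up to 3.53%, against 9 of 73 IP reads (12.3%). With 1 mismatched IP read less per site IP had 2 of 66 (3.03%), below that limit. Each of those 7 sites had dma.IP reads, 1 to 41 of them.

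At the neighbours of A58 the direction turned with the listing adjustment. The 9 sites 1 nt before or after it had 1 of 37 dma.IP reads mismatched (2.70%, 0.0684 to 14.2%) and 10 of 114 IP reads (8.77%, 4.29 to 15.5%), or 1 of 105 IP reads (0.952%) with 1 mismatched read less per site. At A62 of tRNA-iMet, 5 nt past A58, all 4 mismatched IP reads were in CTRL 1 (4 of 7), and the 10 dma.IP reads had none. At A49 of tRNA-iMet 1 of 10 dma.IP and 3 of 11 IP reads were mismatched, all of them in CTRL 2.

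Most mismatched dma.IP reads were in tRNA-Asp and tRNA-Arg, where most dma.IP reads also were. These isotypes held 34 of the 43 mismatched dma.IP reads (79.1%) and 61.5% of all dma.IP reads, against 17 of the 59 mismatched IP reads (28.8%) and 24.8% of all IP reads. The mismatch share of tRNA-Asp alone, 7.88% in dma.IP and 9.48% in IP, was below that of all sites in both fractions. Outside both isotypes, 9 of 202 dma.IP reads (4.46%, 2.06 to 8.29%) and 42 of 412 IP reads (10.2%, 7.45 to 13.5%) were mismatched. With 1 mismatched IP read less per site this became 10 of 380 IP reads (2.63%), so the direction turned.

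A37 of tRNA-Asp-GTC gave the most mismatches in dma.IP, 17 of 91 reads (18.7%, 11.3 to 28.2%), against 2 of 39 IP reads (5.13%, 0.627 to 17.3%) and 8.52% of the Input reads. In tRNA-Asp-GTC-3-1 the dma.IP counts were 3 of 19, 2 of 4, 1 of 2 and 3 of 9 in OE-WT 1, OE-WT 2, CTRL 1 and CTRL 2, and the IP counts were 0 of 2, 1 of 3, 0 of 3 and 0 of 7. Every culture had a higher rate in dma.IP (exact conditional p = 0.106, adjusted p = 0.926). In tRNA-Asp-GTC-2-5 the dma.IP counts were 2 of 19, 2 of 8, 0 of 10 and 4 of 20, and the IP counts 1 of 8, 0 of 7, 0 of 5 and 0 of 4 (exact conditional p = 0.417, adjusted p = 0.926). Rates there were higher in dma.IP in OE-WT 2 and CTRL 2, lower in OE-WT 1 and equal at 0 in CTRL 1. Neither A37 site passed, and the listing adjustment would leave IP with 0 of 37.

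The rest of tRNA-Asp-GTC had 6 of 201 dma.IP reads mismatched (2.99%, 1.10 to 6.38%) and 9 of 77 IP reads (11.7%, 5.49 to 21.03%), or 1 of 69 IP reads (1.45%) with 1 mismatched read less per site, which turned the direction. All 6 were at A9 and A14 of tRNA-Asp-GTC-2-5, with 6 of 17 dma.IP and 3 of 5 IP reads mismatched, and 29.1% of Input reads. A9 is a position that TRMT10B, an enzyme other than TRMT6/TRMT61A, methylates in human tRNA-Asp. At A14, in the D loop, dma.IP had 3 of 7 mismatched reads in CTRL 2, 1 of 1 in OE-WT 2, 0 of 4 in CTRL 1 and none read in OE-WT 1, and IP had 2 of 4 in all. A24 of tRNA-Asp-GTC-2-5 and the 4 sites of tRNA-Asp-GTC-3-1 other than A37 had no mismatched dma.IP read in 21 to 42 reads each, and 1 mismatched IP read each.

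A51 of tRNA-Arg-ACG, in the T stem, had mismatched dma.IP reads in a single culture. All 11 of 30 dma.IP reads that were mismatched (36.7%, 19.9 to 56.1%) came from OE-WT 2, with 7 of 13 in tRNA-Arg-ACG-1-3 and 4 of 10 in tRNA-Arg-ACG-2-1. OE-WT 1 had 0 of 7 dma.IP reads mismatched and the CTRL cultures had no dma.IP reads. IP had 6 of 20 mismatched (30.0%, 11.9 to 54.3%), spread over OE-WT 2, CTRL 1 and CTRL 2, and Input 1 of 111 (0.901%). The 2 tRNAs differ by 1 base next to A51, and both carry A at the site itself. Misplaced reads between them cannot be told from mismatches at that neighbouring base.

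**Figure D5:**
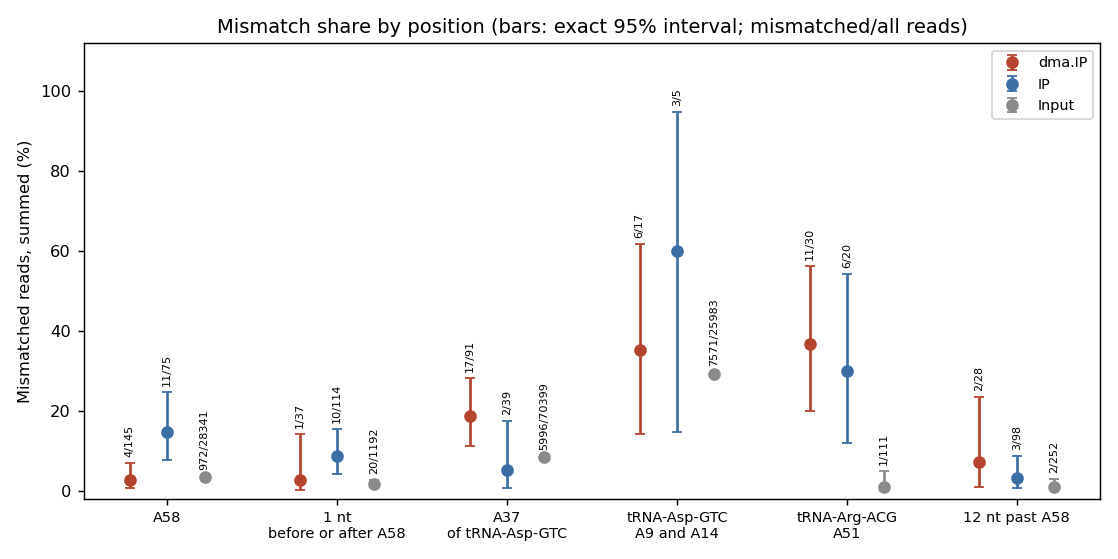
Mismatched reads in percent of all reads (vertical axis), summed over the 4 libraries of dma.IP, IP and Input, for 6 groups of positions. The counts are given, with exact 95% intervals that take each count as independent. The dma.IP share lies below the IP share at A58 and beside it and above it at A37 of tRNA-Asp-GTC, and the IP share includes the mismatched read by which each site is present.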

How the data were processed

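Small RNA of DLD1 cells was sequenced as Input, IP and dma.IP. Per the labels and methods, the authors trimmed reads with Cutadapt 1.9.3, aligned them with Bowtie2 to tRNA sequences and counted them with SAMtools, and used edgeR for abundance. How mismatches were called is not given in the sources used here. The authors deposited, per site and library, counts of reads and of mismatched reads, without normalization. The deposited mismatch rate is a fraction of these counts. Rates were recomputed, and a site without reads was treated as missing. The authors' difference and ratio columns hold their own comparisons and were not used. Nothing is said of sites outside the 44 given here, since part of the table may be missing.

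Reads were tested with edgeR 4.0.16 on sites with 10 or more reads, relative to the summed reads of the sites, with culture as a block. DESeq2 1.42.0 and TMM were alternatives. Mismatches were tested with exact conditional tests stratified by culture and, as an alternative, limma 3.58.1 (offset 0.01). R 4.3.3, Python 3.11.15, SciPy 1.17.1 and matplotlib 3.10.9 were used. The edgeR test of reads was run on simulated counts of independent sites, which the sites here are not. The exact conditional test was compared with R's own exact test. The other models were not simulated. The labels pair fractions by replicate number; same-numbered libraries deviated in opposite directions (correlation over 29 sites -0.51 in OE-WT and -0.32 in CTRL), so the pairing rests on the labels. Named sites were those past a threshold, the 8 with most reads, the 5 highest and 5 lowest log2 ratios, those with dma.IP mismatches in 2 or more libraries, and A58 sites. Others were named after their values were seen. Members and lists were chosen with earlier results of these data known.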

Additional observations from a re-analysis of the deposited data

Results flagged for a closer look

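The change in the overall share of mismatched reads, dma.IP minus IP, was positive in both OE-WT cultures and negative in both CTRL cultures when reads were summed over all sites. The means of the conditions differed by 6.94 percentage points, OE-WT minus CTRL. The exact permutation p of 0.333 is the lowest that 2 cultures against 2 allow, so the design could not pass a threshold here. CTRL 1, with 2 of 62 dma.IP and 14 of 119 IP reads mismatched, gave the largest of the 4 changes. A51 of tRNA-Arg-ACG held 11 of the 17 mismatched dma.IP reads of OE-WT 2. Without it OE-WT 2 had 6 of 100 dma.IP and 14 of 143 IP reads mismatched, a change of -3.79 points, CTRL 2 changed by 0.602 points, and the conditions differed by 2.39 points. By the unweighted mean of site rates OE-WT 2 changed by -8.71 points. Neither of these settings kept the split by condition.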

How the results depend on the processing

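With cultures left out in turn, the overall mismatch difference of -1.28 points ranged from -2.98 to 1.14 (without CTRL 1), and it was 5.23 with 1 mismatched IP read less per site and -2.75 without A51 of tRNA-Arg-ACG. The log2 ratio of total reads, -0.03, ranged from -0.64 (without OE-WT 1) to 0.27 (without CTRL 1). The 3 sites called for reads became 0 to 3 (0 without OE-WT 1, 1 without CTRL 2), and 1 with 1 count per tRNA. Without OE-WT 2, A69 of tRNA-Gln-CTG-4-1 was called and A70 of tRNA-Val-CAC-3-1 was not. TMM scaling called 2 sites. DESeq2 called 4, adding A58 of tRNA-Gln-CTG-5-1, and no filter on low counts gave 4, adding A69 of tRNA-Gln-CTG-4-1. The 2 isotypes called became 1 to 3 (1 without CTRL 1 or CTRL 2), 0 with TMM and 1 with DESeq2. The 0 sites called for mismatches became 1 with limma and the replicate block. The block changed no isotype call, and without it 1 of the 3 sites was lost. Crossed replicate numbers, tried after the data were seen, gave 5 sites and 1 isotype (tRNA-Gln) for reads and 0 for mismatches.

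Some values that passed no threshold turned sign, and the cause was not tested. For reads, log2 ratios without the replicate block were -0.35 in tRNA-Ala and 0.66 in tRNA-Arg, and -0.16 in tRNA-Gly with TMM. Leaving out cultures gave -1.58 to 0.95 in tRNA-Arg, -0.12 to 0.47 in tRNA-Gly, -1.70 to 0.16 in tRNA-iMet and -1.52 to 0.12 at A57 of tRNA-Gln-CTG-1-4. For mismatched dma.IP reads above an even split, values were -0.5 in tRNA-Arg with crossed numbers, and 0.219 in tRNA-Asp and 0.342 in tRNA-Gln with 1 site per tRNA. Leaving out cultures gave -1.66 to 0.494 in tRNA-Asp, -1.75 to 0.599 in tRNA-Gln and -0.154 to 0.127 in tRNA-Val. Depth was low: 8 of 44 sites had reads in all 8 libraries, and 15 sites had under 10 reads in all.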
